A study of Mus musculus with 26 samples.

Results

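A set of iron and 2-oxoglutarate dependent dioxygenases other than the TET proteins was followed through 26 mRNA libraries of mouse CD4+ T cells. The set was defined by gene symbol and held 38 of the 21761 genes counted in both tables. It comprised 15 JmjC histone demethylases, 4 hydroxylases of the hypoxia-inducible factor (HIF), 5 procollagen prolyl and lysyl hydroxylases, 8 AlkB-type enzymes counting Fto, and 6 further oxygenases. All 38 had counts in both tables, which were analysed separately.

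Enzymes of this superfamily hold an iron atom in their active site and use oxygen and 2-oxoglutarate to oxidise a substrate. Vitamin C keeps the iron reduced in many of them, as it does in the TET proteins, which oxidise 5-methylcytosine in DNA. The JmjC members remove methyl groups from histone lysines, the Egln enzymes and Hif1an hydroxylate HIF alpha subunits when oxygen is present, and the collagen hydroxylases modify procollagen in the endoplasmic reticulum. Several members, namely Egln1, Egln3, P4ha1, P4ha2, Plod1, Plod2, Kdm3a, Kdm4b and Kdm4c, are themselves known to be induced by HIF. Transcript levels say nothing of the activity of these enzymes, and activity was not measured.

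The source was C57BL/6 spleen and lymph nodes throughout. Tet2/3-deficient regulatory T (Treg) cells (n = 4) carried Tet2fl/fl, Tet3fl/fl, a Foxp3-eGFP reporter and CD4-Cre, a transgene active in T cells from the thymus on, and were sorted ex vivo at 3 weeks as CD4+ eGFP+ cells. Control Treg cells (n = 4) had the same floxed alleles and reporter without Cre and the same age. From Foxp3-eGFP mice of 5 to 6 weeks came 4 induced Treg (iTreg) cultures, with TGFb, retinoic acid and vitamin C, with TGFb and vitamin C, with TGFb and retinoic acid, and with TGFb alone, together with Th0 cells, given the CD3 and CD28 stimulus but no TGFb, and naive CD4+ cells (n = 2 each). A second table, from reporter mice of 12 to 14 weeks, held cells that were Foxp3-negative 6 days after TGFb iTregs had been restimulated through CD3 and CD28 (n = 3) and Foxp3-positive TGFb iTregs sorted at day 6 (n = 3). Whether the libraries of a group stem from different mice or culture wells is not stated, and p-values therefore reflect only how far these samples spread, which may be technical.

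Depth, as the sum of counts, ran between 13397602 and 17672302 for ex vivo Treg libraries, between 9647669 and 11640223 for the other 12 libraries of the same table, and between 11293704 and 17219805 for the second table. Levels are given as counts scaled to a common library total (CPM), and differences as log2 fold changes ± SE. A member is said to have risen, fallen or passed when its adjusted p in edgeR's quasi-likelihood test was under 0.05. Where the groups of a member that passed are said not to overlap, this is description and no further support for the call. Tet2 stood at 15.8, 12.2, 15.1 and 11.6 CPM with Tet2/3 deficiency, against 14.8, 14.2, 9.98 and 15.4 CPM in control libraries, which overlap. Tet3 was counted at 108, 92.2, 93.7 and 111 CPM against 159, 132, 126 and 168 CPM in control. Counts over whole genes include exons outside a deleted part, so they check these labels little. Y-linked Kdm5d had 660 to 1203 counts and Xist 0 to 2 counts in all 8 ex vivo Treg libraries. Kdm5d had 0 counts and Xist 620 to 4420 counts in the other 18 libraries. Ex vivo Treg cells and the other cells therefore differ in this sex-linked pattern as well as in age, genotype and culture, which cannot be told apart.

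Promoters are shown for Egln1, Egln3, P4ha1 and P4ha2, all of them known to be induced by HIF. These 4 hydroxylase genes each passed in at least 4 of the comparisons, as did others that are not shown, such as Egln2. Each window runs 250 bases before to 50 bases after the gene's start, in the sense of the transcript, from RefSeq on GRCm38.p6. Capitals mark ACGTG or GCGTG, the core letters of the hypoxia response element, on either strand, so that CACGT and CACGC are capitals too. They are Egln1 (chr8:124949205-124949504, minus strand), Egln3 (chr12:54203825-54204124, minus strand), P4ha1 (chr10:59323046-59323345, plus strand) and P4ha2 (chr11:54100674-54100973, plus strand).
Egln1: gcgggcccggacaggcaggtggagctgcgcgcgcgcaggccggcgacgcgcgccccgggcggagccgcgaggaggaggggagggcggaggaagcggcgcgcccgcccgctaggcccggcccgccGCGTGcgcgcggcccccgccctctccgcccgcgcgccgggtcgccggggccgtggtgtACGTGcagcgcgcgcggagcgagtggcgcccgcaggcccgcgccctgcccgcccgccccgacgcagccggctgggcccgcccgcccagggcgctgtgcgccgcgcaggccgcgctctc
Egln3: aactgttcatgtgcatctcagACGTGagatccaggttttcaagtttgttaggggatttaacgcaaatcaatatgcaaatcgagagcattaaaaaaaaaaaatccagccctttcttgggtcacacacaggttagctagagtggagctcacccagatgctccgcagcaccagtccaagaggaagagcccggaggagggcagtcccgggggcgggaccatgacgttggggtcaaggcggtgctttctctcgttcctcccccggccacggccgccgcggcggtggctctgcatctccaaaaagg
P4ha1: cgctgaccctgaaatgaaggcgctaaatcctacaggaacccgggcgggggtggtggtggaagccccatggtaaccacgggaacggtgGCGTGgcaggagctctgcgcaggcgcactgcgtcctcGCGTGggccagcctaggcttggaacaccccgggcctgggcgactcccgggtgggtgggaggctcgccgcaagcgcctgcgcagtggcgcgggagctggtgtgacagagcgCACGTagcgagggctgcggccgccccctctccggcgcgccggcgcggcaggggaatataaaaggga
P4ha2: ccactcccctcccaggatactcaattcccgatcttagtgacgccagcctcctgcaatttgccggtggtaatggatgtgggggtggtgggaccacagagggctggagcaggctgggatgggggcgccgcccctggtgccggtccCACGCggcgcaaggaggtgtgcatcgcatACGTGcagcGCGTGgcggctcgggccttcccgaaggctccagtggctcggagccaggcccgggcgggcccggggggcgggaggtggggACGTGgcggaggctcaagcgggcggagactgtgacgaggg
The letters occurred 2 times in the Egln1 window, 1 time in Egln3, 3 times in P4ha1 and 4 times in P4ha2. Of 32851 mouse promoter windows of the same length, 43.8% held ACGTG or GCGTG. RefSeq windows were found for 31 of the 38 members, and 24 of their 41 windows (58.5%) held either word. A match is a string of letters and not a shown binding site.

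Between Th0 and naive cells most collagen hydroxylases rose and most histone demethylases fell. Of 38 members 10 rose and 20 fell, beside 35.7% of all 11287 tested genes rising and 36.4% falling; the 30 members that passed were thus near the 72% of all genes that did. Of the 5 collagen hydroxylases 4 rose and none fell, and of the 4 HIF hydroxylases 2 rose. Of the 15 histone demethylases 1 rose and 13 fell. The members' median log2 fold change was -0.43, with 0.49 for HIF hydroxylases, 1.26 for collagen hydroxylases and -0.85 for histone demethylases.

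P4ha2, a catalytic subunit of the enzyme that makes hydroxyproline in collagen, was at 38 and 61.7 CPM in Th0 libraries and at 1.53 and 0.672 CPM in naive libraries. Egln3, the HIF prolyl hydroxylase PHD3, was at 26.6 and 84.2 CPM in Th0 and at 1.97 and 2.24 CPM in naive cells. Plod2, the lysyl hydroxylase of collagen telopeptides, was at 4.26 and 15.9 CPM in Th0 and at 0.765 and 0.224 CPM in naive cells. In all 3 genes the groups were far apart, while the second Th0 library lay above the first. Naive cells held few reads of these genes, 14 and 6 for P4ha2, 18 and 20 for Egln3, and 7 and 2 for Plod2. The log2 fold changes were 5.51 ± 0.53 for P4ha2 (adjusted p = 9.04e-06), 4.75 ± 0.68 for Egln3 (adjusted p = 0.000335) and 4.34 ± 0.85 for Plod2 (adjusted p = 0.00131). Their sizes depended on single libraries. Egln3 stood at 5.37 without Th0 library 1 and at 3.71 without library 2. Plod2 stood at 5.02 without Th0 library 1, 3.13 without Th0 library 2, 5.45 without naive library 1 and 3.74 without naive library 2, and P4ha2 at 6.22 without naive library 1. Fitted on the 4 libraries of these groups alone, Egln3 (adjusted p = 0.0615) and Plod2 (adjusted p = 0.0811) missed the threshold.

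P4ha1, the other main prolyl hydroxylase subunit, was at 152 and 231 CPM in Th0 and at 86.3 and 79.1 CPM in naive cells (1.24 ± 0.16, adjusted p = 7.34e-06). Plod3, which also glycosylates collagen, was at 25.6 and 23.9 CPM against 12.1 and 9.07 CPM in naive cells (1.26 ± 0.15, adjusted p = 2.15e-06). Plod1 did not pass (0.14 ± 0.16, adjusted p = 0.44). Egln1, the main oxygen sensor PHD2, was at 234 and 287 CPM in Th0 and at 150 and 143 CPM in naive cells (0.87 ± 0.10, adjusted p = 2.04e-06). Egln2 and Hif1an did not pass. Of the members known to be induced by HIF, Egln1, Egln3, P4ha1, P4ha2 and Plod2 thus rose and Plod1 did not pass. Kdm3a (-0.40 ± 0.12), Kdm4b (-0.88 ± 0.14) and Kdm4c (-0.70 ± 0.12), also known to be induced by HIF, fell. Of 21 further HIF target genes 16 rose and 2 fell in Th0 cells, with a median of 1.79; the glycolytic enzyme Tpi1 averaged 1060 ± 180 CPM in Th0 and 65.1 ± 7 CPM in naive cells (SD, n = 2 each).

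Among the histone demethylases, Kdm6b, which removes H3K27 methylation, was at 29.8 and 36.8 CPM in Th0 and at 177 and 166 CPM in naive cells. This was the largest fall of any member in this comparison (-2.33 ± 0.14, adjusted p = 1.04e-09). Kdm5b, an H3K4 demethylase, was at 23.2 and 38.3 CPM in Th0 and at 155 and 122 CPM in naive cells (-2.14 ± 0.19, adjusted p = 3.46e-07). Its relative Kdm5a was at 103 and 112 CPM in Th0 and at 273 and 243 CPM in naive cells (-1.22 ± 0.11, adjusted p = 1.1e-07). The third H3K4 demethylase of this group, X-linked Kdm5c, lay closer together, at 194 and 201 CPM against 246 and 225 CPM (-0.22 ± 0.11, adjusted p = 0.0784). Kdm2b, which binds unmethylated CpG islands with a Polycomb complex, was the only demethylase to rise, with 107 and 99.2 CPM in Th0 and 68.1 and 60.8 CPM in naive cells (0.71 ± 0.09, adjusted p = 5.67e-06). Its paralog Kdm2a fell (-0.85 ± 0.11, adjusted p = 5.52e-06). The other 9 demethylases that fell did so by 0.40 to 0.91 on the log2 scale, Kdm3a least; Kdm3a missed the threshold without naive library 1 (adjusted p = 0.123) or Th0 library 1 (adjusted p = 0.169).

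The 15 demethylase transcripts are long, with exons of 4956 bases or more in sum. Among all 3064 tested genes of at least that length, 24.5% rose and 51.5% fell in Th0 cells, with a median of -0.36, against 39.8% and 30.7% of the 8223 shorter genes, with a median of 0.10. Histone methyltransferases did not move as a block, with 8 of 23 rising and 10 falling. Ezh2, the H3K27 methyltransferase of Polycomb complex 2, averaged 254 ± 8.7 CPM in Th0 and 40.5 ± 0.66 CPM in naive cells (2.69 ± 0.09, adjusted p = 1e-12), opposite to Kdm6b. All 8 markers of cycling cells rose, to a summed 4580 to 4630 CPM in Th0 cells against 233 to 244 CPM in naive cells. The part of cell cycling and of transcript length in the members' changes was not tested. In such bulk samples, fewer cells of a kind and less RNA per cell cannot be told apart.

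Phyh, which starts the peroxisomal breakdown of phytanic acid, was at 19.5 and 23.3 CPM in Th0 and at 60.9 and 58.8 CPM in naive cells (-1.45 ± 0.12, adjusted p = 5.81e-08). Jmjd6, a lysyl hydroxylase of splicing factors, was at 73.5 and 89.7 CPM in Th0 and at 50 and 41.9 CPM in naive cells (0.87 ± 0.15, adjusted p = 8.42e-05). Of the 8 AlkB-type genes 5 fell and 2 rose. The m6A demethylase Fto fell (-0.47 ± 0.09, adjusted p = 0.000243), while the other m6A demethylase, Alkbh5, was at 199 and 202 CPM in Th0 and at 213 and 190 CPM in naive cells and did not pass (0.03 ± 0.10, adjusted p = 0.815). Alkbh7, a mitochondrial protein, rose by 0.62 ± 0.20 but missed the threshold without naive library 1 (adjusted p = 0.0608) or Th0 library 2 (adjusted p = 0.0614), and the fall of Alkbh8 (-0.46 ± 0.16) was lost without naive library 1 (adjusted p = 0.173) or Th0 library 1 (adjusted p = 0.193) and in DESeq2 (adjusted p = 0.0541).

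**Figure D1:**
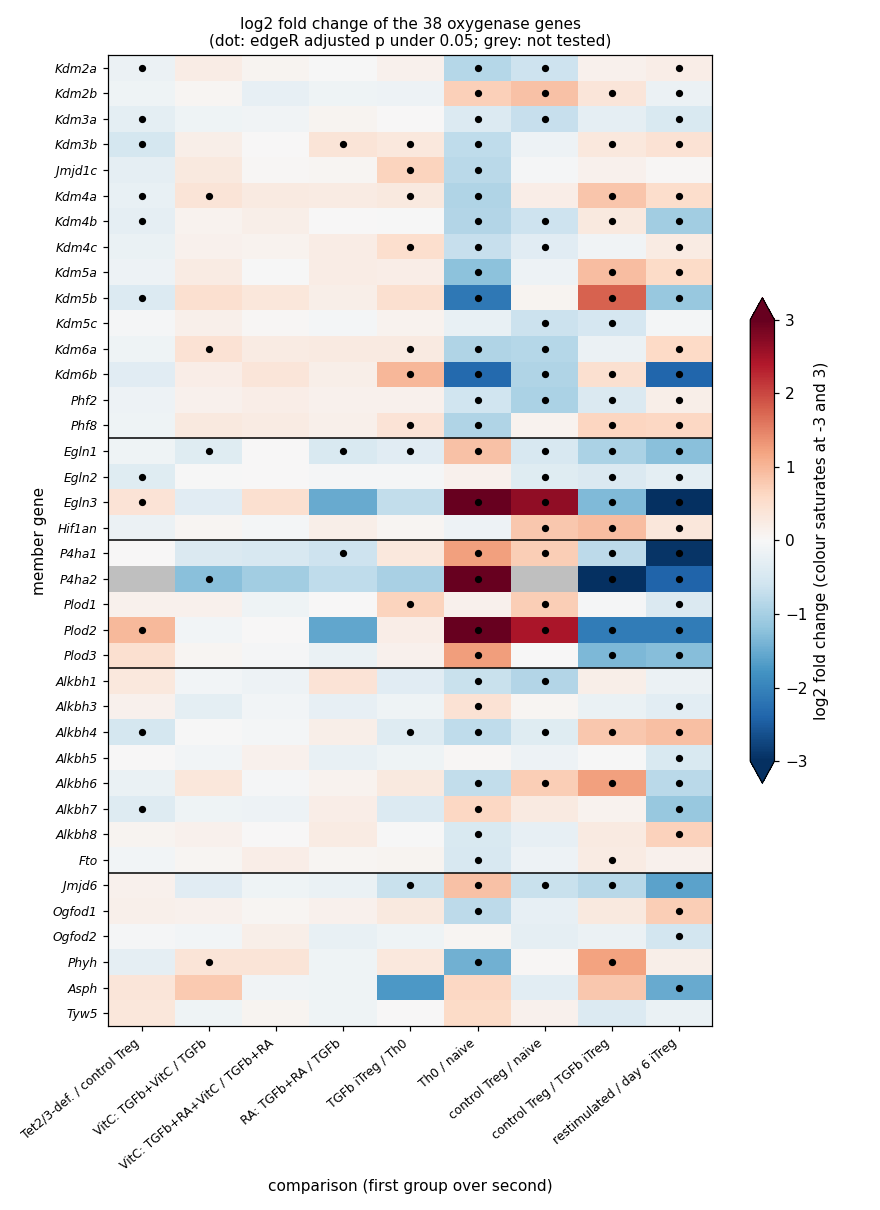
Log2 fold changes of the 38 members (rows, by subfamily) in 9 comparisons (columns), as a colour scale of the first named group over the second, with a mark on those whose adjusted p was under 0.05. Of the 9 collagen and HIF hydroxylases 6 are marked as higher in Th0 than in naive cells and 8 as lower in restimulated than in day 6 cells, where Hif1an is higher, while 13 of 15 histone demethylases are lower in Th0 cells; none of the 38 passed for vitamin C with retinoic acid.

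TGFb iTregs were then set against Th0 cells, which were activated the same way without TGFb. Of 38 members 8 rose and 3 fell, where 14.5% of all genes rose and 11.6% fell. Of the 8 that rose 7 were histone demethylases and the other was Plod1. Kdm6b was at 70.4 and 61.8 CPM in TGFb iTregs and at 29.8 and 36.8 CPM in Th0 cells (0.99 ± 0.14, adjusted p = 0.000158), and both iTreg libraries stayed below the 166 to 177 CPM of naive cells. Jmjd1c, a relative of the H3K9 demethylases, was at 137 and 127 CPM against 75.5 and 90 CPM in Th0 cells (0.67 ± 0.10, adjusted p = 0.000286). Plod1, the lysyl hydroxylase of collagen helices, was at 19.6 and 22.4 CPM against 13.2 and 13.2 CPM (0.67 ± 0.15, adjusted p = 0.00384). These 3 calls held in all 10 alternatives.

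Kdm4c, an H3K9 and H3K36 demethylase, was at 58.6 and 64.9 CPM in TGFb iTregs and at 37.1 and 49.5 CPM in Th0 cells (0.51 ± 0.12, adjusted p = 0.00693), and missed the threshold without TGFb library 2 (adjusted p = 0.0601) or Th0 library 1 (adjusted p = 0.103). Jmjd6 was lower in iTregs, at 49.5 and 53.7 CPM against 73.5 and 89.7 CPM (-0.66 ± 0.14, adjusted p = 0.00414), and missed it without Th0 library 2 (adjusted p = 0.0549). In both genes the groups did not overlap. Egln1 was at 214 and 194 CPM in iTregs and at 234 and 287 CPM in Th0 cells (-0.35 ± 0.10, adjusted p = 0.0191), lost without TGFb library 2 (adjusted p = 0.135) or Th0 library 2 (adjusted p = 0.218). Alkbh4, known to act on methylated actin, was at 24.5 and 22.6 CPM against 34 and 27.8 CPM (-0.39 ± 0.13, adjusted p = 0.0325), lost without either TGFb library (adjusted p = 0.0822 and 0.164) or Th0 library 1 (adjusted p = 0.318) and in DESeq2 (adjusted p = 0.0783). These pairs did not overlap either. Egln3 and P4ha2 did not pass with all libraries but did without Th0 library 1, at -1.33 (adjusted p = 0.00019) and -1.28 (adjusted p = 0.0181), P4ha2 also without TGFb library 1 (-1.39, adjusted p = 0.0396). Plod2 (1.44, adjusted p = 0.0139) and P4ha1 (0.64, adjusted p = 0.00353) passed upward without Th0 library 2. The direction of 2 of these genes hung on a Th0 library, Plod2 standing at 0.21 with all libraries and -0.45 without Th0 library 1 (adjusted p = 0.316), and Egln3 at -0.73 and, without Th0 library 2, 0.32 (adjusted p = 0.27). The count of members that passed was 11, and 7 without TGFb library 1 and 5 without TGFb library 2. Over all genes the count was 2943, and 1539, 1772, 1480 and 1945 without TGFb library 1 or 2 or Th0 library 1 or 2. Genes with exons of at least 4956 bases rose in 23.3% and fell in 5.71%, with a median of 0.14, against a median of -0.06 for shorter genes. Of 21 further HIF targets 11 fell and none rose, with Ankrd37 (-1.87 ± 0.23, adjusted p = 3.63e-05) at 8.07 ± 0.51 CPM in iTregs and 29.5 ± 2.6 CPM in Th0 cells (SD, n = 2 each). Of 8 cycling markers 5 fell, to a summed 3710 to 4110 CPM in iTregs against 4580 to 4630 CPM in Th0 cells, and their part was not tested.

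Vitamin C, a cofactor of many of these enzymes, was added to TGFb iTregs. Of 38 members 3 rose and 2 fell, beside 8.84% of all genes rising and 7.99% falling, so the members passed about as often as genes at large. P4ha2 was at 14.2 and 7.11 CPM with vitamin C and at 31.5 and 19 CPM with TGFb alone. Egln1 was at 166 and 152 CPM with vitamin C and at 214 and 194 CPM with TGFb alone. Neither pair overlapped, and both were lower with vitamin C, P4ha2 by a log2 fold change of -1.26 ± 0.37 (adjusted p = 0.047) and Egln1 by -0.37 ± 0.10 (adjusted p = 0.024). P4ha1, at 194 and 157 CPM against 241 and 234 CPM, did not pass (-0.44 ± 0.15, adjusted p = 0.058), but did in DESeq2 (adjusted p = 0.0297) and with only these 2 groups fitted (adjusted p = 0.0164). Egln3, at 28.6 and 24.5 CPM against 35.2 and 31.4 CPM, did not pass either (-0.34 ± 0.47, adjusted p = 0.674).

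Kdm6a, the X-linked H3K27 demethylase, was at 110 and 115 CPM with vitamin C and at 84.5 and 81.7 CPM with TGFb alone (0.43 ± 0.09, adjusted p = 0.00443). This was the only member whose call held in all 10 alternatives. Kdm4a, an H3K9 and H3K36 demethylase, was at 136 and 128 CPM against 106 and 95.5 CPM (0.38 ± 0.10, adjusted p = 0.0171). Phyh was at 34.4 and 35.3 CPM against 24.8 and 28.7 CPM (0.38 ± 0.12, adjusted p = 0.0487). Kdm6b, at 79 and 74.3 CPM against 70.4 and 61.8 CPM, did not pass (0.21 ± 0.13, adjusted p = 0.305). The demethylase estimates ran between -0.14 for Kdm3a and 0.49 for Kdm5b, and the 2 named were the only ones of the 15 to pass. Genes with exons of at least 4956 bases also leaned upward, with 14.9% rising and 3.17% falling and a median of 0.13, against 6.57%, 9.79% and a median of -0.05 for shorter genes.

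With 2 libraries a group most of these calls were lost with a single library or another setting, and a group left with 1 library was assumed to vary like the others. The members that passed numbered 2 without TGFb library 1, 3 without TGFb library 2, 2 without vitamin C library 1 and 1 without vitamin C library 2, and the genes 1900, with 771, 830, 1001 and 908 in the same order. P4ha2 missed the threshold with RLE factors (adjusted p = 0.0514), in DESeq2 (adjusted p = 0.0542), without a count filter (adjusted p = 0.12) and with a replicate block. It also missed the threshold without TGFb library 1 (-0.85) or vitamin C library 2 (-0.84). Egln1 missed it without TGFb library 1 (-0.30, adjusted p = 0.166), vitamin C library 1 (-0.42, adjusted p = 0.0534) or vitamin C library 2 (-0.32, adjusted p = 0.142). Kdm4a missed it without TGFb library 2 (adjusted p = 0.145) or either vitamin C library (adjusted p = 0.0996 and 0.0536), and Phyh without any of the 4 (adjusted p = 0.0703 to 0.292), in DESeq2 (adjusted p = 0.106) and with all 20 libraries fitted (adjusted p = 0.119). Of the 21 further HIF targets 11 fell and none rose with vitamin C, with a median of -0.40; Tpi1 averaged 359 ± 88 CPM with vitamin C and 639 ± 92 CPM with TGFb alone (SD, n = 2 each, -0.84 ± 0.16, adjusted p = 0.00606). Of 8 cycling markers 6 fell, to a summed 2870 to 3430 CPM with vitamin C against 3710 to 4110 CPM, and 3 of 5 Treg markers rose, to a summed 5960 to 6000 CPM against 4350 to 4620 CPM. The 2 CD8 markers rose, to 23.6 to 27.8 CPM against 13.5 to 15.4 CPM. Their part in the members' changes was not tested.

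With retinoic acid also in the culture, vitamin C moved no member past the threshold, beside 4.31% of all genes rising and 3.22% falling. An unadjusted p under 0.05 in edgeR was found for 9 of 38 members and for 2378 of all 11287 genes. DESeq2 called 1 member, P4ha1. With a replicate block some members passed, as given under the processing checks below. The labels do not say that the replicate numbers pair the libraries. P4ha1 was at 114 and 107 CPM with TGFb, retinoic acid and vitamin C and at 153 and 154 CPM with TGFb and retinoic acid (-0.49 ± 0.15, adjusted p = 0.0718). P4ha2 was at 7.09 and 7.23 CPM against 13.2 and 16 CPM (-1.04 ± 0.41, adjusted p = 0.183). Kdm6a was at 118 and 116 CPM against 105 and 91.1 CPM (0.24 ± 0.09, adjusted p = 0.108). In all 3 genes the estimates had the sign seen without retinoic acid. The groups did not overlap, which with 2 libraries a group says little by itself. Egln1 was at 157 and 142 CPM against 151 and 144 CPM (0.01 ± 0.10, adjusted p = 0.972). Without library 1 of TGFb and retinoic acid, Kdm4a stood at 0.40, Kdm6a at 0.35 and Kdm6b at 0.58. These were picked because they passed in that fit, which left 1 library in the group. All genes that passed numbered 851, and 424, 460 and 438 without library 2 of TGFb and retinoic acid or library 1 or 2 with vitamin C.

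Whether vitamin C acted differently with and without retinoic acid was tested as an interaction. No member passed it in edgeR or DESeq2, and of all 11287 genes 0% passed upward and 0.0177% downward, 2 genes by edgeR and 17 by DESeq2. Egln1 (0.38 ± 0.14, adjusted p = 0.803) and Kdm2b (-0.32 ± 0.13, adjusted p = 0.883) were the 2 members with an unadjusted p under 0.05, which 564 genes had in all. The 2 genes became 11 without library 2 of TGFb and retinoic acid, and 1 without TGFb library 1, vitamin C library 1 or library 2 of all 3 agents.

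Retinoic acid added to TGFb iTregs lowered Egln1 and P4ha1. The TGFb libraries are the ones vitamin C was set against, and the Th0, naive and control Treg libraries likewise serve in more than 1 comparison. Of 38 members 1 rose and 2 fell, beside 7.19% and 9.29% of all genes. Egln1 was at 151 and 144 CPM with retinoic acid and at 214 and 194 CPM with TGFb alone (-0.45 ± 0.10, adjusted p = 0.00681). P4ha1 was at 153 and 154 CPM against 241 and 234 CPM (-0.61 ± 0.15, adjusted p = 0.0132). Kdm3b, an H3K9 demethylase, was at 216 and 182 CPM against 158 and 150 CPM (0.38 ± 0.09, adjusted p = 0.00815). None of these groups overlapped. Among the demethylases Kdm3b alone passed, where genes with exons of at least 4956 bases rose in 10.4% and fell in 7.51%. Of 8 cycling markers 7 fell, to a summed 2670 to 2920 CPM with retinoic acid against 3710 to 4110 CPM, and their part was not tested.

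Larger estimates did not pass. Egln3 was at 12.1 and 11 CPM with retinoic acid and at 35.2 and 31.4 CPM with TGFb alone (-1.51 ± 0.52, adjusted p = 0.091), but passed in DESeq2 (adjusted p = 0.0277). Plod2 was at 3.86 and 3.95 CPM against 13.3 and 9.97 CPM (-1.55 ± 0.55, adjusted p = 0.0897). Neither pair overlapped. The spread was estimated over 12 libraries, among them the 2 Th0 libraries, which lay far apart in both genes. Fitted on these 4 libraries alone, Egln3 (adjusted p = 0.000112) and Plod2 (adjusted p = 0.00142) passed, and Kdm3b (adjusted p = 0.0525) did not. Leaving out TGFb library 1 left 1 member past the threshold, as Egln1 (adjusted p = 0.0824) and P4ha1 (adjusted p = 0.0865) missed it; P4ha1 also missed it without either retinoic acid library (adjusted p = 0.114 and 0.0706), and Kdm3b without retinoic acid library 1 (adjusted p = 0.107) or TGFb library 2 (adjusted p = 0.0765). The 1860 genes that passed became 1060 without retinoic acid library 1 and 795 without TGFb library 1. Of the 21 further HIF targets 11 fell and 1 rose, with a median of -0.66, and Tpi1 averaged 294 ± 30 CPM with retinoic acid and 639 ± 92 CPM without (SD, n = 2 each, -1.10 ± 0.16, adjusted p = 0.000891).

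**Figure D2:**
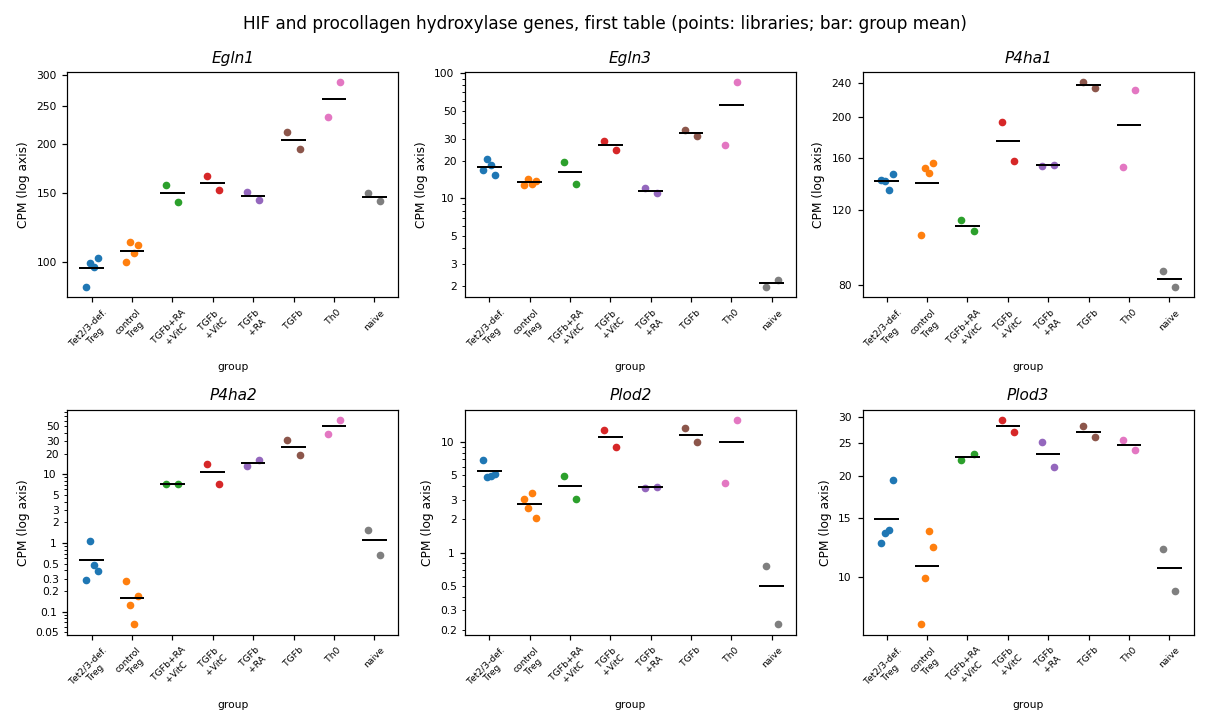
CPM on a log axis of 6 HIF and collagen hydroxylases in each library of the 8 groups of the first table, points for libraries and bars for group means. P4ha2 is under 2 CPM in all ex vivo Treg and naive libraries, Plod2 is under 1 CPM in naive libraries only, and Egln1 is under 170 CPM in the cultures with vitamin C or retinoic acid and at 194 CPM or more with TGFb alone and in Th0 cells.

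**Figure D3:**
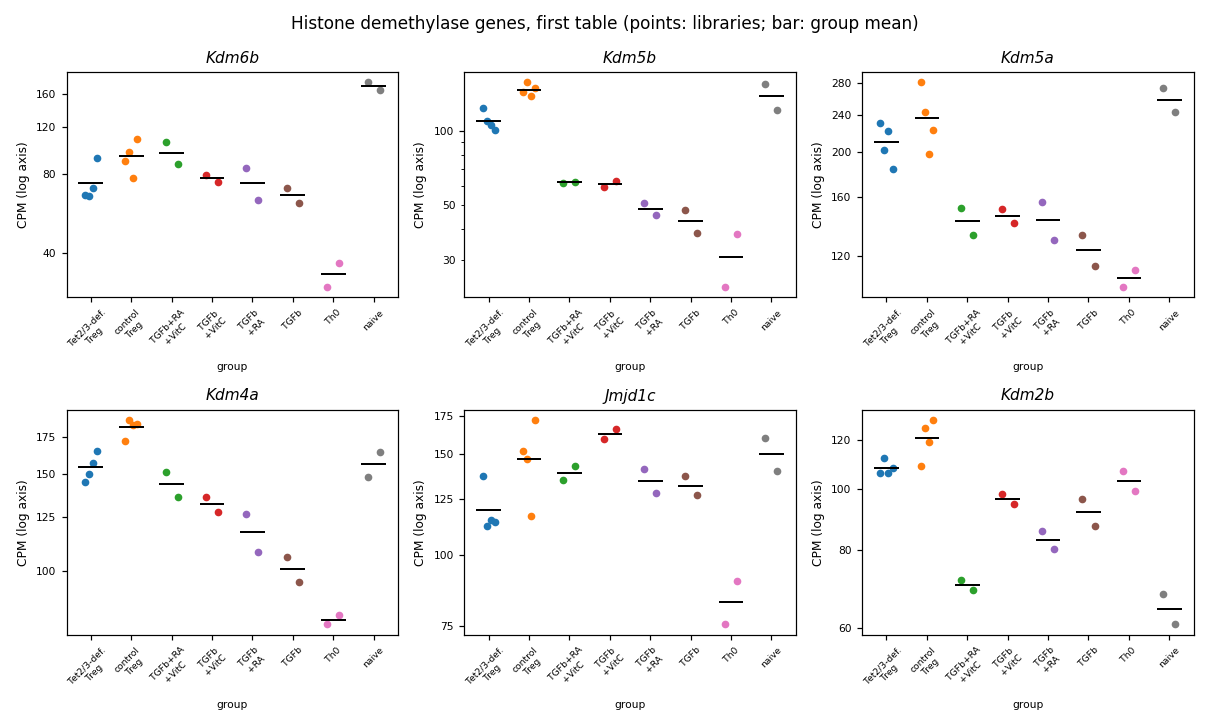
CPM on a log axis of 6 JmjC histone demethylases in each library of the 8 groups of the first table, points for libraries and bars for group means. Kdm6b and Kdm5b are lowest in Th0 cells, and Kdm5b is above 100 CPM in all ex vivo Treg and naive libraries and below 65 CPM in the cultured ones.

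Ex vivo Treg cells deficient in Tet2 and Tet3 had lower levels of several demethylases than control Treg cells. Of 37 tested members 2 rose and 9 fell, where 16.7% of all 11679 genes rose and 15.8% fell; P4ha2, with 1 to 18 counts in each of the 8 libraries, was not tested. Of the 15 histone demethylases 6 fell and none rose. The members' median was -0.14 and that of the demethylases -0.19, against 0.00 over all genes. Every change was under 2-fold.

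Kdm3b was at 143, 132, 128 and 134 CPM in Tet2/3-deficient cells and at 218, 201, 168 and 188 CPM in control cells. Kdm5b was at 124, 110, 106 and 101 CPM in Tet2/3-deficient cells and at 144, 158, 139 and 150 CPM in control cells. In both genes every Tet2/3-deficient library lay below every control library, with log2 fold changes of -0.52 ± 0.08 (adjusted p = 0.00057) and -0.41 ± 0.07 (adjusted p = 0.00147). The other 4 that fell, Kdm2a, Kdm3a, Kdm4a and Kdm4b, did so by 0.18 to 0.30 on the log2 scale, and in Kdm3a the groups overlapped. Kdm2a (adjusted p = 0.0388) and Kdm3a (adjusted p = 0.0476) missed the threshold when any 1 of 6 libraries was left out (adjusted p = 0.0579 to 0.123), namely S6, S7 and S8 of the Tet2/3-deficient and S1, S2 and S4 of the control cells, and Kdm2a also without a count filter (adjusted p = 0.0542). Kdm6b, at 66.2, 65.7, 70.5 and 91.4 CPM against 89.6, 96.9, 77.3 and 108 CPM, overlapped and did not pass (-0.33 ± 0.12, adjusted p = 0.065). It passed without Tet2/3-deficient library S8 (-0.45, adjusted p = 0.00944) or control library S3 (-0.41, adjusted p = 0.027), as did Jmjd1c without Tet2/3-deficient library S5 (-0.35, adjusted p = 0.034) or control library S3 (-0.38, adjusted p = 0.00908). Both also passed in DESeq2, Kdm6b at adjusted p = 0.0343 and Jmjd1c at adjusted p = 0.0438, and with all 20 libraries fitted. Genes with exons of at least 4956 bases rose in 12.9% and fell in 21.6%, with a median of -0.06, against 18.2%, 13.7% and a median of 0.03 for shorter genes.

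Alkbh4 was at 29.2, 29.6, 28.3 and 27.9 CPM in Tet2/3-deficient cells and at 36.6, 46.1, 44 and 40.6 CPM in control cells (-0.53 ± 0.08, adjusted p = 0.000657). Alkbh7 was at 10.4, 10.8, 10.5 and 9.86 CPM against 12.6, 15.4, 13.9 and 12.8 CPM (-0.39 ± 0.10, adjusted p = 0.0147), and missed the threshold without control library S2 (adjusted p = 0.0528). Groups did not overlap in either gene. The HIF hydroxylases split. Egln2, or PHD1, was at 36.6, 39.8, 39.6 and 44 CPM in Tet2/3-deficient cells and at 56, 53.5, 51.7 and 47.7 CPM in control cells (-0.37 ± 0.08, adjusted p = 0.00395). Egln3 was at 16.9, 20.5, 18.6 and 15.5 CPM against 12.8, 14.2, 13 and 13.9 CPM (0.42 ± 0.11, adjusted p = 0.0113). Neither overlapped, and they moved in opposite directions; Egln3 missed the threshold when all 20 libraries of the table were fitted together (adjusted p = 0.231). Egln1 did not pass (-0.14 ± 0.07, adjusted p = 0.131).

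Plod2 was at 6.85, 4.84, 4.96 and 5.12 CPM in Tet2/3-deficient cells and at 3.04, 2.52, 3.46 and 2.07 CPM in control cells. Every Tet2/3-deficient library was above every control library, although the gene had fewer than 100 counts in each (0.98 ± 0.20, adjusted p = 0.00339). P4ha1 did not pass (0.02 ± 0.11, adjusted p = 0.888). Of 6 tested collagen chains 4 rose and none fell; Col15a1 averaged 20 ± 0.61 CPM in Tet2/3-deficient and 13.8 ± 0.15 CPM in control cells (SD, n = 4 each, 0.55 ± 0.08, adjusted p = 0.000627). Of 20 tested HIF targets 9 rose and 1 fell, with a median of 0.17, and hexokinase Hk2 averaged 20.3 ± 2 CPM against 11.4 ± 2.7 CPM (SD, n = 4 each, 0.85 ± 0.15, adjusted p = 0.00168).

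The histone methyltransferases gave 6 rises and 2 falls among 23, with Ezh2 at 116 ± 4.6 CPM in Tet2/3-deficient and 67.2 ± 11 CPM in control cells (SD, n = 4 each, 0.79 ± 0.10, adjusted p = 0.000183). The 8 markers of cycling cells summed to 1080 to 1190 CPM in Tet2/3-deficient and 325 to 763 CPM in control libraries, though 2 of the 8 passed, both upward. The 5 myeloid markers summed to 38.5 to 108 CPM against 31.9 to 39.4 CPM, and the 2 CD8 markers to 3.23 to 5.07 CPM against 24.8 to 28.1 CPM. The 5 Treg markers summed to 2250 to 2560 CPM against 2640 to 2920 CPM. None of these lists had a marker at 0, and their part in the members' changes was not tested.

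**Figure D4:**
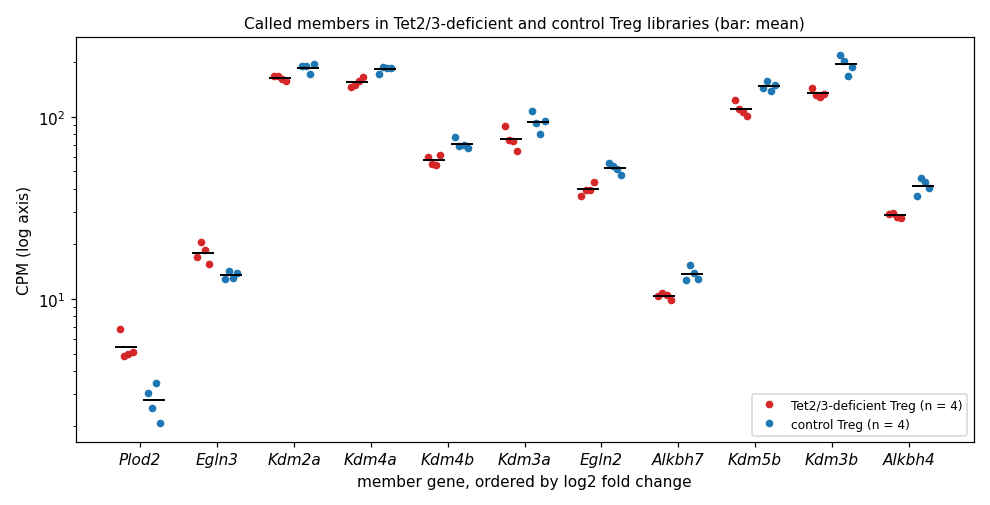
CPM on a log axis of the 11 members that passed between Tet2/3-deficient and control Treg cells, each point a library (4 a group) and bars group means. Plod2 and Egln3 are higher in Tet2/3-deficient cells and the other 9 are lower, and Kdm3a is the only one of the 11 in which the 2 groups overlap. All 11 were picked because they passed, so that the groups lie apart is no further support.

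Control Treg cells were also set against naive cells. Of 37 tested members 7 rose and 13 fell (P4ha2, at 1 to 14 counts, was not tested), beside 28.6% and 26.3% of all 11738 genes. Egln3 was at 12.8, 14.2, 13 and 13.9 CPM in control Treg and at 1.97 and 2.24 CPM in naive cells (2.66 ± 0.20, adjusted p = 1.5e-06). Plod2 was at 3.04, 2.52, 3.46 and 2.07 CPM against 0.765 and 0.224 CPM (2.44 ± 0.49, adjusted p = 0.00163), and stood at 3.57 without naive library 1 and 1.83 without naive library 2. In both genes every Treg library was above both naive libraries. Kdm2b was at 109, 125, 119 and 129 CPM in control Treg and at 68.1 and 60.8 CPM in naive cells (0.89 ± 0.10, adjusted p = 4.48e-05). Hif1an, the asparaginyl hydroxylase that blocks HIF's coactivator binding, was at 119, 109, 108 and 111 CPM against 66.7 and 60.3 CPM (0.80 ± 0.09, adjusted p = 3.51e-05).

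The demethylases gave 8 falls and 1 rise, while genes with exons of at least 4956 bases rose in 25.2% and fell in 35.3%, against 29.9% and 22.9% of shorter genes. Phf2, an H3K9 demethylase, was at 115, 109, 95.9 and 119 CPM in control Treg and at 210 and 211 CPM in naive cells (-0.95 ± 0.10, adjusted p = 1.57e-05). Kdm6b was at 89.6, 96.9, 77.3 and 108 CPM against 177 and 166 CPM (-0.90 ± 0.12, adjusted p = 0.000143). Kdm6a was at 71.5, 74.5, 70.6 and 79 CPM against 135 and 130 CPM (-0.86 ± 0.09, adjusted p = 1.3e-05). All 3 were lower in every Treg library than in either naive library. Kdm6a and Kdm5c (-0.64 ± 0.11, adjusted p = 0.000527) are X-linked with Y-linked relatives, Uty and Kdm5d, that can share reads with them. The ex vivo libraries alone held Kdm5d counts. Xist had at most 1 count in control Treg libraries, against 620 and 651 counts in naive libraries. For these X-linked genes the sex-linked pattern and the cell type cannot be told apart. Alkbh1, a tRNA and mitochondrial demethylase, was at 16.1, 15.1, 14.2 and 17.1 CPM in control Treg and at 30.7 and 26 CPM in naive cells (-0.87 ± 0.13, adjusted p = 0.000308). Kdm4c, Egln2, Plod1 and Alkbh4 passed but lost the call when a single naive library was left out (adjusted p = 0.0563 to 0.155), and Kdm4c also without control library S3 (adjusted p = 0.0553). The 5 B cell markers summed to 43.2 to 105 CPM in control Treg and 2.19 to 3.02 CPM in naive cells, where 2 of them were at 0, the 5 myeloid markers to 31.9 to 39.4 CPM against 9.07 to 10.2 CPM, with 2 at 0 in naive cells, and 4 erythroid markers to 289 to 694 CPM against 1.20 to 2.46 CPM, where 1 was at 0. Their part in these changes was not tested.

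Against TGFb iTregs, control Treg cells had more of most demethylases that passed and less of most HIF and collagen hydroxylases. Of 38 members 13 rose and 10 fell, beside 32.3% and 29.1% of all 11831 genes. Of the demethylases 8 rose and 2 fell, of the collagen hydroxylases 4 fell, and of the HIF hydroxylases 3 fell and Hif1an rose (0.93 ± 0.09, adjusted p = 1.34e-05). The 2 demethylases that fell were Phf2 and X-linked Kdm5c. For Kdm5c the sex-linked pattern and the cell type cannot be told apart. P4ha2 was at 0.282, 0.126, 0.0653 and 0.168 CPM in control Treg, from 4, 2, 1 and 3 counts, and at 31.5 and 19 CPM in TGFb iTregs (-7.25 ± 0.33, adjusted p = 6.79e-08). Plod2 was at 3.04, 2.52, 3.46 and 2.07 CPM against 13.3 and 9.97 CPM (-2.09 ± 0.23, adjusted p = 3.02e-05). Plod3 was at 7.20, 9.90, 13.7 and 12.3 CPM against 28.1 and 26.1 CPM (-1.34 ± 0.21, adjusted p = 0.000473). Egln3 was also lower in control Treg cells (-1.32 ± 0.12, adjusted p = 5.87e-06). In the 4 genes no Treg library reached an iTreg library.

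Kdm5b was at 144, 158, 139 and 150 CPM in control Treg and at 47.7 and 38.4 CPM in TGFb iTregs (1.76 ± 0.11, adjusted p = 5.19e-07), which placed Treg cells near the 155 and 122 CPM of naive cells; that pair did not differ past the threshold (0.08 ± 0.11, adjusted p = 0.554). Alkbh6 was at 37.3, 33.3, 30.9 and 31.2 CPM against 12.6 and 15.2 CPM in iTregs (1.24 ± 0.14, adjusted p = 3.52e-05). Phyh was at 50.4, 75.5, 62.4 and 60.4 CPM against 24.8 and 28.7 CPM (1.20 ± 0.16, adjusted p = 0.000121). Genes with exons of at least 4956 bases rose in 36% and fell in 27.1%, against 30.9% and 29.8% of shorter genes. The 8 cycling markers all fell, with 325 to 763 CPM in control Treg and 3710 to 4110 CPM in iTregs. The 5 B cell markers summed to 43.2 to 105 CPM in control Treg and 3.07 to 3.53 CPM in iTregs, and the 5 myeloid markers to 31.9 to 39.4 CPM against 2.32 to 3.35 CPM, each list with 3 at 0 in iTregs. The 4 erythroid markers summed to 289 to 694 CPM against 131 to 183 CPM, with 1 at 0 in iTregs. The part of these lists in the members' changes was not tested. Of 21 HIF targets 2 rose and 17 fell, with a median of -1.28. Of the 23 calls 16 held in all 10 alternatives. Kdm5c and Phf2 missed the threshold without TGFb library 1, Kdm2b and Kdm6b without TGFb library 2, Kdm3b and Fto without either of these or control library S2, Fto also in DESeq2, and Kdm4b without TGFb library 2 or control library S2 or S3, with adjusted p of at most 0.366.

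Restimulated cells had lower levels of 8 of the 9 HIF and collagen hydroxylases. These cells were Foxp3-negative after restimulation and were set against day 6 Foxp3-positive iTregs. Restimulation and Foxp3 state therefore cannot be told apart. In this comparison 12 of 38 members rose and 20 fell, beside 33.6% and 35.2% of all 11252 genes. All 5 collagen hydroxylases and 3 of 4 HIF hydroxylases fell. Of the 15 demethylases 8 rose and 5 fell. The median was -2.10 for collagen hydroxylases, -0.78 for HIF hydroxylases and 0.17 for demethylases.

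Egln3 was at 12.1, 14.7 and 13 CPM in restimulated cells and at 196, 214 and 239 CPM in day 6 iTregs, 16.2-fold lower (-4.02 ± 0.09, adjusted p = 3.91e-14). P4ha1 was at 47.4, 52.3 and 49.7 CPM against 384, 390 and 387 CPM (-2.95 ± 0.06, adjusted p = 6.52e-15). P4ha2 was at 19.1, 18.5 and 19 CPM against 100, 99.3 and 102 CPM (-2.41 ± 0.06, adjusted p = 9.89e-14). In each gene the spread within a group was small beside the distance between groups. Plod2 was at 12.4, 12.3 and 11.1 CPM against 52.7, 48.4 and 52.1 CPM (-2.10 ± 0.08, adjusted p = 6e-12), and Egln1 at 133, 150 and 138 CPM against 315, 343 and 348 CPM (-1.25 ± 0.06, adjusted p = 1.18e-10). Plod3 fell by 1.28 on the log2 scale. The falls of Egln2 and Plod1 were small, Egln2 at 54, 52.2 and 52.9 CPM against 58.6, 65.3 and 71.5 CPM (-0.30 ± 0.07, adjusted p = 0.00151) and Plod1 at 10.4, 10.9 and 11.9 CPM against 14.1, 14.5 and 16.5 CPM (-0.44 ± 0.10, adjusted p = 0.00156), and Hif1an rose (0.33 ± 0.06, adjusted p = 0.000355). Egln1, Egln3, P4ha1 and P4ha2, whose promoters are shown above, all fell here. Kdm6a, whose window is not shown and held the marked letters in 4 places, rose. Whether the letters go with direction was not tested. All 21 further HIF targets fell too, with a median of -2.27; Ankrd37 averaged 1.52 ± 0.38 CPM in restimulated and 33.8 ± 6.2 CPM in day 6 cells (SD, n = 3 each, -4.44 ± 0.19, adjusted p = 2.76e-10), while Hif1a itself did not pass (0.15 ± 0.07, adjusted p = 0.0574).

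Kdm6b was at 19.7, 16.5 and 21.5 CPM in restimulated cells and at 96.4, 94.6 and 112 CPM in day 6 iTregs (-2.39 ± 0.09, adjusted p = 6.7e-11). Kdm6a, which acts on the same histone mark, moved the other way, with 79.9, 80.3 and 82.1 CPM against 54, 53.5 and 54 CPM (0.59 ± 0.05, adjusted p = 1.95e-07). The H3K4 demethylases split likewise, Kdm5b falling by 1.13 and Kdm5a rising by 0.58, while Kdm5c did not pass (-0.05 ± 0.06, adjusted p = 0.428). Among the H3K9 demethylases Phf8 was at 89.7, 90.6 and 93.8 CPM against 63.1, 60.1 and 57 CPM (0.61 ± 0.06, adjusted p = 2.67e-07). Kdm4a rose by 0.53 and Kdm3b by 0.43, while Kdm4b fell by 1.04. Kdm3a also fell, at -0.48 to -0.42 over the alternatives. Kdm4c and Phf2 rose, at 0.22 to 0.28 and 0.14 to 0.21. Genes with exons of at least 4956 bases rose in 51.6% and fell in 20.3%, with a median of 0.23, against 27%, 40.7% and a median of -0.10 for shorter genes.

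The largest rise of a member in this comparison was in Alkbh4, at 30.1, 32.3 and 32.8 CPM in restimulated and 15.7, 17 and 18 CPM in day 6 cells (0.91 ± 0.08, adjusted p = 1.08e-07). Ogfod1, which hydroxylates a proline of a ribosomal protein, was at 34, 36.8 and 34.4 CPM against 21.6, 20.9 and 20.4 CPM (0.74 ± 0.07, adjusted p = 3.18e-07). Alkbh8, a tRNA-modifying enzyme, was at 16, 14.4 and 16.3 CPM against 10.5, 8.93 and 9.65 CPM (0.69 ± 0.10, adjusted p = 3.33e-05). Jmjd6 fell, at 27.6, 27.7 and 27.5 CPM against 81.3, 84.7 and 85.9 CPM (-1.60 ± 0.06, adjusted p = 6.02e-12). Asph, which hydroxylates EGF-like domains, fell as well at very low levels (-1.51 ± 0.28, adjusted p = 0.000204). The 5 Treg markers all fell, with 976 to 1030 CPM in restimulated and 4590 to 4890 CPM in day 6 cells, and 6 of 8 cycling markers fell, with 1180 to 1640 CPM against 2130 to 2540 CPM. The 4 erythroid markers summed to 21.1 to 26.4 CPM against 68.4 to 100 CPM, with 2 at 0 in restimulated and 1 at 0 in day 6 cells. Their part was not tested. Of the 32 calls 30 held in all 10 alternatives; Kdm2b missed the threshold without day 6 library 1 or 2 or restimulated library 1 or 3 (adjusted p = 0.062 to 0.111) and in DESeq2 (adjusted p = 0.112), and Phf2 without day 6 library 2 (adjusted p = 0.0814) or restimulated library 1 (adjusted p = 0.0606).

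**Figure D5:**
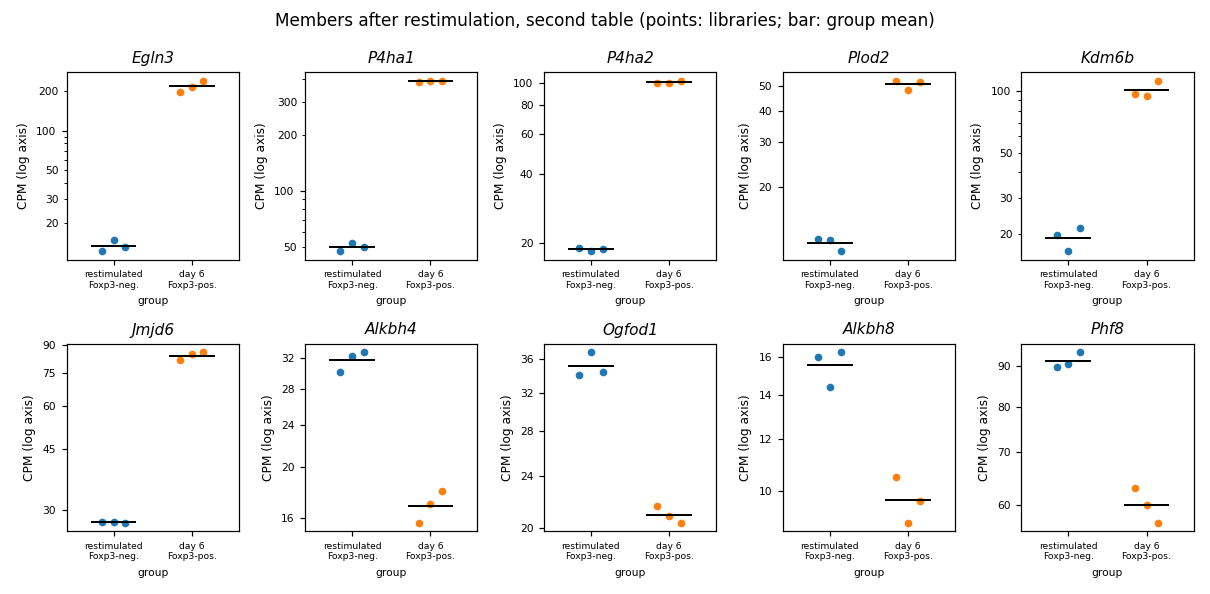
CPM on a log axis of 10 members in restimulated Foxp3-negative cells and day 6 Foxp3-positive iTregs, each point a library (3 a group) and bars group means. All 10 were picked from the members that passed, so that the groups lie apart is no further support. Egln3, P4ha1, P4ha2, Plod2, Kdm6b and Jmjd6 are lower and Alkbh4, Ogfod1, Alkbh8 and Phf8 higher in restimulated cells.

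Levels of different genes were compared on FPKM, which divides by exon length. Egln1 had the highest FPKM of the 38 in the naive and all cultured groups of the first table, with 57.2 ± 3.5 in TGFb iTregs and 38.4 ± 1.3 in naive cells (SD, n = 2 each), and in both groups of the second table. It stood within the spread of Phyh (37.5 FPKM) in naive cells and of P4ha1 (57.0 FPKM) in TGFb iTregs. In ex vivo Treg cells Phyh had the highest mean, at 36.5 ± 3.3 FPKM in Tet2/3-deficient and 42.5 ± 6.7 FPKM in control cells (SD, n = 4 each). In day 6 iTregs the means of Egln1 (92.5 FPKM), P4ha1 (91.5 FPKM) and Egln3 (78.7 FPKM) led, the first 2 within their spread. Asph was lowest in 9 of the 10 groups, between 0.0242 and 0.179 FPKM, and P4ha2 was lowest in control Treg cells at 0.0319 FPKM. The spans of 10 members overlap that of another protein-coding gene in the RefSeq annotation, Plod3, Jmjd6, Kdm5a, Kdm5b and Alkbh7 among them. The libraries were stranded, but whether counting used the strand is not given in the sources used here, so reads of such partners could be counted for these members.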

How the data were processed

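mRNA was sequenced from 26 libraries in 10 groups, with stranded kits per the labels' protocols. Per the submitters' processing notes, the build was mm9 and the tools included TopHat2 2.1.1, Trim Galore 0.4.2 and edgeR 3.26.6. The counting tool, its strand setting and the annotation release are not given in the sources used here. The deposited whole-number counts per gene were made by the authors for each library without pooling, in a table of 20 libraries and a table of 6, and the authors' FPKM values, which divide by exon length and library total, were deposited beside them. Their RPM table was not used, since it restates the counts.

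For the tests edgeR 4.0.16 (under R 4.3.3) took the counts through its default filterByExpr, TMM scaling and robust quasi-likelihood fits, in each table separately, with Benjamini-Hochberg adjustment over all genes tested in a comparison and a threshold of 0.05. The 12 naive and cultured libraries shared a fit, the 8 ex vivo Treg libraries another, and control Treg cells were set against naive or TGFb cells in fits of their own libraries. The SE is the log2 fold change divided by the square root of F. CPM are over TMM-scaled library totals. Alternatives were other size factors, DESeq2 1.42.0, no count filter, fits on fewer or more groups, a replicate block, and leaving out each library. The edgeR procedure was tested on simulated counts. The grouping of genes by exon length and the sex-linked gene check were added after seeing the data.

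The members and the gene lists were chosen with earlier results of these data known. Named with values in every library were up to 4 members a direction with the largest change among those that passed, with members of the same subfamily beside them, and from other lists up to 3 genes that passed with a mean of at least 10 CPM. HIF targets, histone methyltransferases, iron and 2-oxoglutarate genes and cell markers were described by counts.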

Additional observations from a re-analysis of the deposited data

Results flagged for a closer look

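In a group of 4 libraries, 1 library was called far from the rest when its gap to the nearest other, as a share of the group's range, exceeded Dixon's 95% critical value. Of 76 member and group pairs in the ex vivo Treg cells 6 met this, where chance gives about 1 in 20. Among Tet2/3-deficient libraries, Jmjd1c was at 137 CPM in S5 against 112 to 115 CPM in the others, Plod2 at 6.85 CPM in S5 against 4.84 to 5.12 CPM, and Kdm5c at 164 CPM in S8 against 140 to 143 CPM. Among control libraries, S1 stood apart in 3 genes, with P4ha1 at 105 CPM against 147 to 155 CPM, Fto at 110 CPM against 94.5 to 96.4 CPM and Jmjd6 at 32.3 CPM against 28.2 to 28.9 CPM. Plod2 kept its call without S5, and Jmjd1c gained one (adjusted p = 0.034).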

How the results depend on the processing

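Each alternative was compared with the fit reported in the results, and not with the other alternatives. No member that passed in either fit of such a pair had the opposite sign in the other. Where a member passed in neither, the sign changed in 177 of 2543 pairs of member and alternative, 9 of them with an estimate over 0.2 in size, among them Plod2 and Egln3 between TGFb and Th0 cells. Members that passed and held in every alternative numbered 7 of 11 for Tet2/3 deficiency and 1 of 5 for vitamin C with TGFb. They numbered 0 of 3 for retinoic acid, 3 of 11 for TGFb against Th0 and 25 of 30 for Th0 against naive. Control Treg cells gave 16 of 20 against naive and 16 of 23 against TGFb cells. Restimulated Foxp3-negative against day 6 Foxp3-positive cells gave 30 of 32. For vitamin C with TGFb, 8 members passed in place of 5 when only the 2 groups were fitted. With retinoic acid present, 1 member passed in DESeq2 (P4ha1) and 2 with only the 2 groups fitted (P4ha1 and P4ha2), with 487 genes in place of 851. For retinoic acid, 5 members passed in place of 3 with only the 2 groups fitted and 5 with all 20 libraries fitted. Where no count of all genes stands beside a count of members, it is not read as a result about the members. For the interaction, 17 genes passed in DESeq2 and 25 without a count filter, in place of 2. Of the genes called for retinoic acid, 43.6% rose with TMM, 38.2% with RLE factors and 37.2% in DESeq2; medians of all genes moved by under 0.1.

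Leaving out a library gave 1 to 3 members and 771 to 1001 genes for vitamin C with TGFb, 0 to 3 and 424 to 899 with retinoic acid present, 1 to 4 and 795 to 1898 for retinoic acid, 1 to 11 genes for the interaction and 5 to 9 members and 1480 to 1945 genes for TGFb against Th0. Elsewhere no such count moved by over 1.5 times. With 2 libraries a group, fewer samples left less power.

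The labels do not say whether the replicate numbers of the cultures mark a shared batch. Deviations of same-numbered iTreg libraries correlated at 0.22 to 0.42, those with naive or Th0 libraries at 0.01 to 0.09, and those of restimulated and day 6 cells at 0.08, 0.10 and 0.20, each restimulated library correlating best with its own number, a hint from the data and not the design. With a replicate block, 8 members passed for vitamin C with TGFb, P4ha2 not among them, and 5 for retinoic acid. With retinoic acid present 4 members and 1363 genes passed, and 26 genes passed for the interaction. The counts of 8 and 5 members have no count of all genes beside them and are not read as results about the members. No paired analysis was possible for the ex vivo Treg cells because their columns carry no shared numbers.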

Other observations

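Among genes that feed or accompany these enzymes, Tfrc, the transferrin receptor that brings iron into cells, averaged 626 ± 33 CPM with TGFb and vitamin C and 952 ± 4.4 CPM with TGFb alone (SD, n = 2 each, -0.61 ± 0.08, adjusted p = 0.000235 by edgeR), and 555 ± 41 CPM with all 3 agents and 898 ± 81 CPM with TGFb and retinoic acid (-0.71 ± 0.08, adjusted p = 6.54e-05). In ex vivo cells Tfrc averaged 134 ± 8.2 CPM in Tet2/3-deficient and 69.8 ± 9.6 CPM in control Treg cells (SD, n = 4 each, 0.96 ± 0.10, adjusted p = 3.51e-05). Of 13 genes of iron supply and storage 2 rose with Tet2/3 deficiency, near the 16.7% of all genes that rose. Of 12 tested 2 fell with vitamin C in either culture, beside 7.99% of all genes without and 3.22% with retinoic acid. Of 20 genes of 2-oxoglutarate supply and removal 7 rose and 1 fell with Tet2/3 deficiency, beside 16.7% and 15.8% of all genes, and 5 fell with vitamin C added to TGFb, beside 7.99%. Psat1, which makes 2-oxoglutarate in serine synthesis, averaged 145 ± 0.47 CPM with vitamin C and 204 ± 4.2 CPM with TGFb alone (SD, n = 2 each, -0.50 ± 0.09, adjusted p = 0.00185).

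Of 23 tested histone methyltransferases 8 rose and 3 fell with vitamin C added to TGFb, beside 8.84% and 7.99% of all genes and 14.9% and 3.17% of genes with exons of at least 4956 bases. The H3K4 methyltransferase Kmt2a averaged 266 ± 13 CPM with vitamin C and 146 ± 10 CPM with TGFb alone (SD, n = 2 each, 0.87 ± 0.17, adjusted p = 0.00588). Kmt2c averaged 260 ± 1.3 CPM and 144 ± 4.4 CPM in the same groups (0.85 ± 0.14, adjusted p = 0.00137). Both transcripts are long, and long genes leaned the same way.

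Tmlhe, an X-linked oxygenase of carnitine synthesis outside the 38 members, had 90 to 249 counts in each of the 12 naive and cultured libraries of the first table and 0 counts in all 8 ex vivo Treg libraries and all 6 libraries of the second table. TGFb iTregs had 132 to 154 counts in the first table, while day 6 TGFb iTregs had 0 in the second. For the ex vivo Treg libraries, differences in sex-linked pattern, age and genotype cannot be told apart. The 6 libraries of the second table had Xist counts and 0 Kdm5d counts, as did the 12 libraries with Tmlhe counts. They also came from reporter mice but differed in age and table, which cannot be told apart. Whether the gene was counted alike in all libraries is not given in the sources used here, so the 0 is not read as a level of expression. This gene was chosen after its values were seen.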
